A study of Homo sapiens with 8 samples.

Results

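The miR-181 family was followed through 4 Dicer genotypes of H1 cells, an established human embryonic stem cell line, by sequencing of small RNAs. The members are a set list of mature arms of miR-181a to miR-181d, matched by name, and 7 of the 594 miRNAs measured are members; an eighth arm in the table, miR-181b-2-3p, is not on the list and is described apart. They are 4 5p arms (miR-181a-5p, miR-181b-5p, miR-181c-5p and miR-181d-5p) and 3 3p arms (miR-181a-2-3p, miR-181a-3p and miR-181c-3p). The genotypes were Dicer-S1344L hemizygous, Dicer-S1344L homozygous, Dicer-null and wild type, with 2 libraries each. The S1344L lines were engineered with CRISPR-Cas9 to study a Dicer substitution that recurs in cancer; the labels do not say how the null line was made, how many clones stand behind a genotype or whether the lines share other edits. The labels describe the RNA samples as biologically independent, and a small RNA table holds no measure of the Dicer transcript or protein, so the genotypes rest on the labels.

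Dicer cuts the loop from a miRNA precursor hairpin and leaves a duplex of 2 strands, the 5p and the 3p arm. Its RNase IIIa domain, in which S1344 lies, cuts on the 3p side, and its RNase IIIb domain cuts on the 5p side. As a rule 1 arm of the duplex, the guide, is loaded into Argonaute and kept, and the other is degraded; for miR-181 the guide is the 5p arm. miR-181 is best known from the blood lineages: in mice, miR-181a is abundant in immature thymocytes and makes T cells more sensitive to antigen by lowering several phosphatases. In mouse embryonic stem cells, miR-181 and miR-125 act against the Polycomb gene Cbx7.

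The sequences below, from RefSeq on GRCh38.p14, show what the members share. All 7 were found there. They are written 5′ to 3′ with the seed, bases 2 to 8, in capitals, because the seed sets which transcripts a miRNA can bind.
miR-181a-5p: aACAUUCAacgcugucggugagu
miR-181b-5p: aACAUUCAuugcugucggugggu
miR-181c-5p: aACAUUCAaccugucggugagu
miR-181d-5p: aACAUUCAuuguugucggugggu
miR-181a-2-3p: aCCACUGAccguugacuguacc
miR-181a-3p: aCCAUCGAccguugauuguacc
miR-181c-3p: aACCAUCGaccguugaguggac
The 4 5p arms have the same seed, which no other miRNA of the table carries, so a change in their sum is a change in all that the table holds of that seed. The 3p arms have 3 different seeds, each carried in the table by that arm alone. Counting from the 5′ end, miR-181b-5p differs from miR-181a-5p by A9U, C10U and A21G, and miR-181d-5p differs from miR-181b-5p by C12U alone. miR-181c-5p lacks the G at base 11 of miR-181a-5p. The table does not say how a read that fits several of these names was counted, so the split among the 5p members is less certain than their sum.

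The family comes from 3 clusters, each with an a- and a b-like hairpin. MIR181A1 and MIR181B1 lie on the minus strand at chr1:198858873-198859153 (GRCh38), in an intron of the long noncoding RNA gene MIR181A1HG. MIR181A2 and MIR181B2 lie on the plus strand of chromosome 9, in an intron of MIR181A2HG and antisense to an intron of NR6A1. MIR181C and MIR181D lie on the plus strand at chr19:13874699-13875011, in an intron of NANOS3. The hairpins below are those with both arms among the members, with the 5p and then the 3p arm in capitals; they show the substrate on which Dicer has to cut at both ends of the loop.
MIR181A1, chr1:198859044-198859153, minus strand: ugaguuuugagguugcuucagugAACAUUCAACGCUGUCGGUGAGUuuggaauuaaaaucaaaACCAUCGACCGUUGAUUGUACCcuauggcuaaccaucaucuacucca
MIR181A2, chr9:124692442-124692551, plus strand: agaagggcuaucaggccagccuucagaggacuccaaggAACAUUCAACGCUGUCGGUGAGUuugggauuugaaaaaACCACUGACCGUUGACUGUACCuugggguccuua
MIR181C, chr19:13874699-13874808, plus strand: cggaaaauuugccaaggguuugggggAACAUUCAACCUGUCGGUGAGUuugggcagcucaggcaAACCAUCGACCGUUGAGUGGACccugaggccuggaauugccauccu
Between the arms lie 17 bases in MIR181A1, 15 in MIR181A2 and 16 in MIR181C. The 2 miR-181a loci give the same 5p arm and different 3p arms, which differ by U5C, C6U and U16C from miR-181a-3p to miR-181a-2-3p. The 3p reads can therefore be told apart by locus and the 5p reads cannot.

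Values are RPM, reads scaled to a denominator that the authors set for each library. Divided by that denominator, the miRNA reads came to 0.729 and 2.42 in hemizygous cells, 2.43 and 2.18 in homozygous cells, 0.118 and 0.183 in null cells, and 2.09 and 2.33 in wild-type cells. Hemizygous replicate 1 thus stood apart from replicate 2, with a median difference over all miRNAs of 1.94 on the log2 scale (replicate 2 minus replicate 1), and the main hemizygous results are also given without it. The members had 128 and 319 reads in hemizygous cells, 452 and 317 in homozygous cells, 37 and 30 in null cells, and 3516 and 3014 in wild-type cells. As shares of all miRNA reads, which do not depend on the denominator, these are 0.0128% and 0.0174% in hemizygous, 0.0197% and 0.0175% in homozygous, 0.0224% and 0.0218% in null, and 0.131% and 0.111% in wild-type libraries. The family thus took a smaller share of the miRNA pool in every mutant library than in either wild-type library. In RNA from whole cultures, fewer cells with a miRNA and less of it per cell cannot be told apart.

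In S1344L cells all 4 5p members fell, while the 3p members did not: 1 of 3 rose in homozygous cells and none passed the test in hemizygous cells. Fold changes are log2 of (RPM + 1), tested with limma over all 594 miRNAs and called at a Benjamini-Hochberg adjusted p under 0.05.

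miR-181a-5p, the most abundant member in the wild type, had 8.74 and 60.8 RPM in hemizygous cells, 53.0 and 49.3 RPM in homozygous cells, 9.29 and 22.6 RPM in null cells, and 1340 and 1335 RPM in wild-type cells. All 6 mutant libraries lay far below both wild-type libraries; the homozygous libraries stood above the null libraries and hemizygous replicate 1 did not. The log2 fold change against the wild type was -5.77 ± 1.01 in hemizygous cells (SE from a spread pooled over miRNAs and genotypes, n = 2 per group, limma adjusted p = 5.30e-07). In homozygous cells it was -4.68 ± 1.01 (adjusted p = 8.49e-05, limma). Among the 227 5p-named miRNAs it had the 9th lowest change in hemizygous and the 20th lowest in homozygous cells.

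miR-181b-5p, made from the hairpins next to those of miR-181a, had 55.4 and 149 RPM in hemizygous cells, 175 and 115 RPM in homozygous cells, 7.15 and 7.99 RPM in null cells, and 884 and 765 RPM in wild-type cells. It was lower in all S1344L libraries than in the wild type, yet stood above both null libraries in all 4 of them. It had the smallest change of the 4 5p members in both S1344L genotypes, -3.16 ± 1.00 in hemizygous (adjusted p = 0.00647, limma) and -2.52 ± 1.00 in homozygous cells (adjusted p = 0.0377, limma). Its homozygous mean was 17.6% of the wild-type mean, against 3.82% for miR-181a-5p.

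miR-181c-5p and miR-181d-5p share the chromosome 19 cluster. miR-181c-5p had 8.74 and 18.5 RPM in hemizygous cells, 29.7 and 24.0 RPM in homozygous cells, 8.57 and 5.32 RPM in null cells, and 283 RPM in both wild-type libraries. miR-181d-5p, the least abundant 5p member in the wild type, had 2.19 and 14.5 RPM in hemizygous, 15.9 and 12.0 RPM in homozygous, 1.43 and 1.33 RPM in null, and 192 and 124 RPM in wild-type cells. Both fell, with log2 changes for miR-181c-5p of -4.37 ± 1.01 in hemizygous and -3.36 ± 1.01 in homozygous cells, and for miR-181d-5p of -4.47 ± 0.98 and -3.39 ± 0.98 in the same order. The adjusted p-values from limma were 0.000134 and 0.00537 for miR-181c-5p and 6.25e-05 and 0.00365 for miR-181d-5p.

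A loss of 5p arms was common in these cells. Of all 5p-named miRNAs, 60.4% were called lower in hemizygous and 48.9% in homozygous cells, against 4 of 4 members in each. The median log2 change was -4.42 for the 4 members and -2.93 for all 5p-named miRNAs in hemizygous cells, and -3.37 against -2.26 in homozygous cells. The direction of the 4 members was the same, and past the threshold, when the libraries were scaled to their own miRNA totals, by median ratios or by upper quartiles. With any homozygous or wild-type library left out, only miR-181a-5p of the 5 calls in homozygous cells stayed past the threshold, with log2 changes between -4.73 and -4.63, in fits that called 6.57% to 11.4% of all miRNAs; without either null library miR-181b-5p was lost from them (adjusted p = 0.0513 without null replicate 1, limma). In hemizygous cells miR-181b-5p was lost without either wild-type library and in a fit of only the 4 hemizygous and wild-type libraries (adjusted p = 0.0887, limma). Without hemizygous replicate 1 all 4 stayed called lower in hemizygous cells, at -4.44 for miR-181a-5p, -2.45 for miR-181b-5p, -3.87 for miR-181c-5p and -3.32 for miR-181d-5p.

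**Figure D1:**
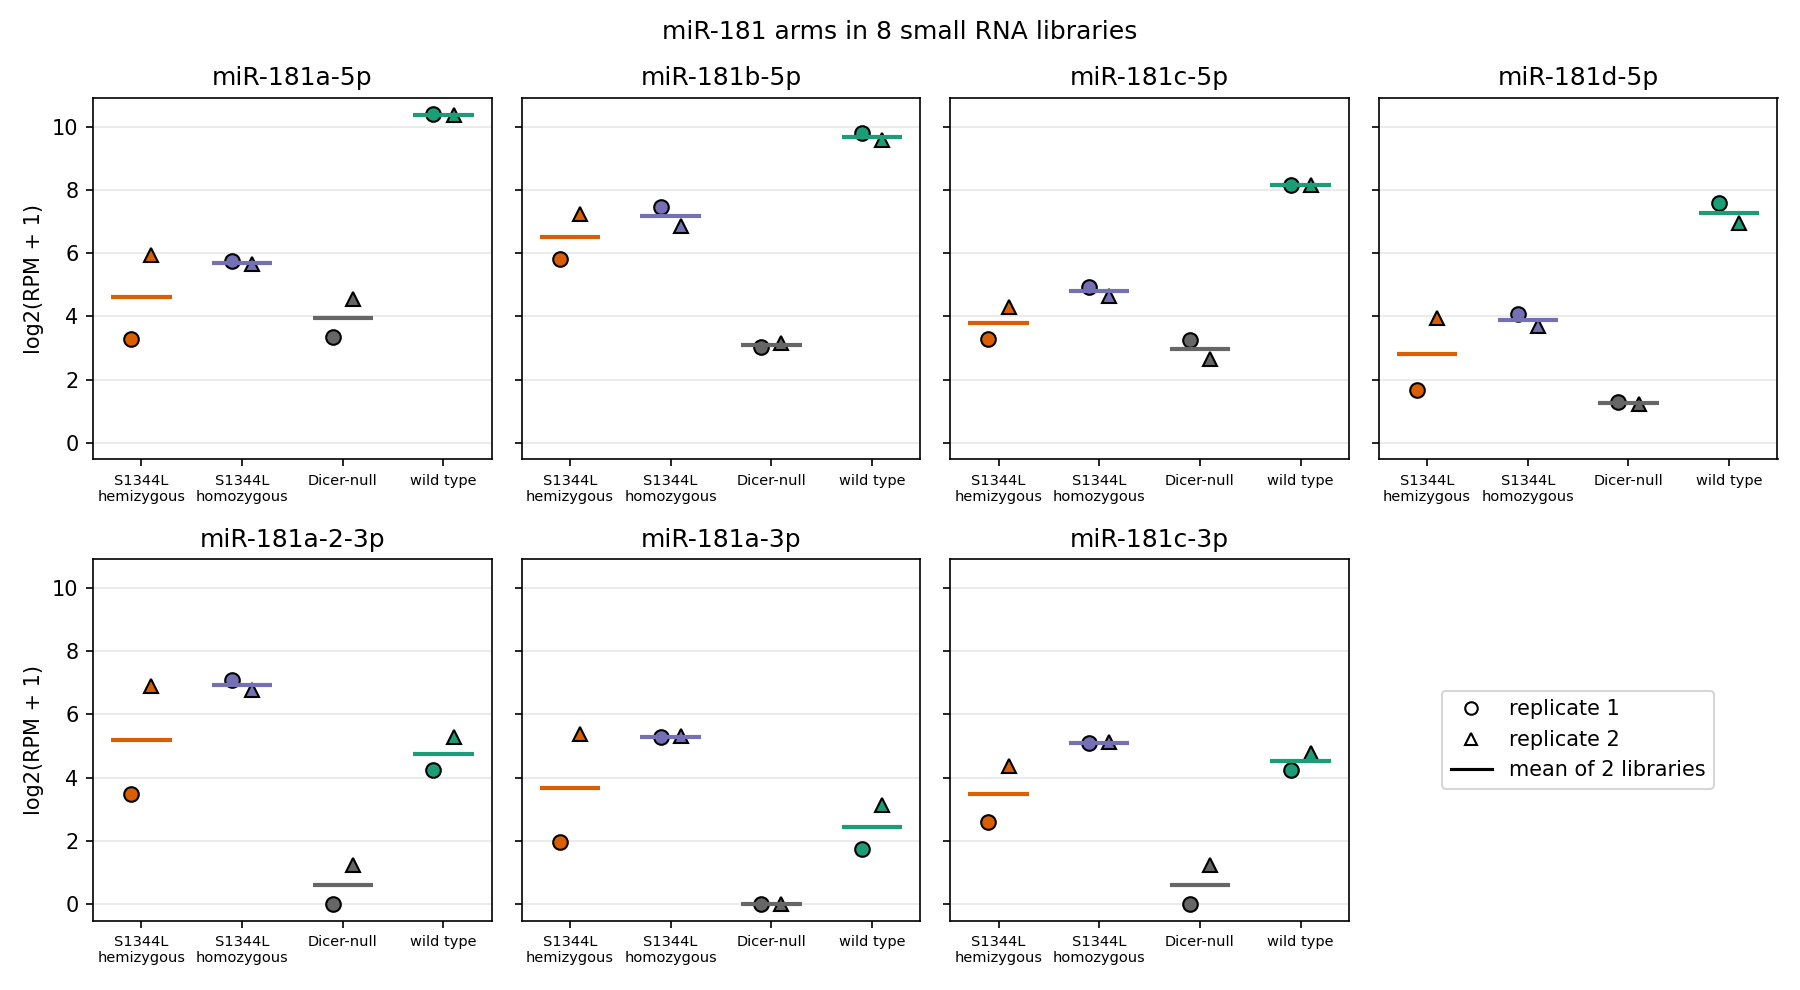
RPM of the 7 members in each library on a log2(RPM + 1) axis, by genotype; circles are replicate 1, triangles replicate 2 and bars the mean of 2 libraries. The 5p arms in the upper row are highest in the wild type, while the 3p arms in the lower row are as high or higher in homozygous S1344L cells and at or near 0 in null cells.

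The 3p arms are normally the discarded strands, and in the wild type they were rare: miR-181a-2-3p had 23 and 44 reads, miR-181a-3p 3 and 9, and miR-181c-3p 23 and 31. miR-181a-3p, from the chromosome 1 locus, had 2.91 and 41.0 RPM in hemizygous cells, 38.1 and 38.5 RPM in homozygous cells, 0 RPM in both null libraries, and 2.34 and 7.70 RPM in wild-type cells. Both homozygous libraries lay above the wild type, whereas the hemizygous libraries fell on either side of its upper value. It rose by 2.87 ± 0.94 in homozygous cells (adjusted p = 0.0100, limma), and its change in hemizygous cells was 1.25 ± 0.94 (adjusted p = 0.341, limma).

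miR-181a-2-3p, from the chromosome 9 locus, had 10.2 and 118 RPM in hemizygous cells, 135 and 108 RPM in homozygous cells, 0 and 1.33 RPM in null cells, and 17.9 and 37.6 RPM in wild-type cells. The homozygous libraries again lay above both wild-type libraries and the hemizygous libraries on either side of them. The log2 change in homozygous cells, 2.17 ± 1.00, missed the threshold over all miRNAs (adjusted p = 0.0850, limma), and that in hemizygous cells was 0.43 ± 1.00. miR-181c-3p had 5.10 and 19.8 RPM in hemizygous cells, 32.8 and 33.7 RPM in homozygous cells, 0 and 1.33 RPM in null cells, and 17.9 and 26.5 RPM in wild-type cells, with log2 changes of -1.02 ± 0.97 in hemizygous and 0.59 ± 0.97 in homozygous cells that missed the threshold. Its homozygous libraries were the highest of the 8, and its hemizygous libraries overlapped the wild type.

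Of all 3p-named miRNAs, 8% were called higher in hemizygous and 18.7% in homozygous cells, against 0 of 3 members in hemizygous (0 also at an unadjusted p under 0.05 and with limma-voom) and 1 of 3 in homozygous cells. The median change of the 3 members was 0.43 against -0.18 for all 3p-named miRNAs in hemizygous cells, and 2.17 against 0.68 in homozygous cells. The hemizygous values turned on replicate 1: without it, miR-181a-2-3p had a log2 change of 2.13 (adjusted p = 0.0444, limma) and miR-181a-3p of 2.96 (adjusted p = 0.00646), and without replicate 2 these were -1.27 and -0.46, with miR-181c-3p called lower at -1.90. miR-181a-2-3p was called higher in homozygous cells, making 2 of 3, with 5 RPM added (adjusted p = 0.0338, limma). It was also called in a fit of only the 4 libraries (0.00202) and under upper-quartile scaling (0.0399). In the same order these fits called 35.5%, 62.3% and 62.9% of all miRNAs in either direction, against 32.0% in the main fit. Without either hemizygous library its log2 change stayed at 2.17. Under median-ratio and upper-quartile scaling miR-181a-3p was called higher in hemizygous cells too, with 2.06 and 2.39, and miR-181c-3p turned to 0.18 and 0.63. Those fits called 55.8% and 62.6% of all miRNAs in hemizygous cells, against 34.5% in the main fit.

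**Figure D2:**
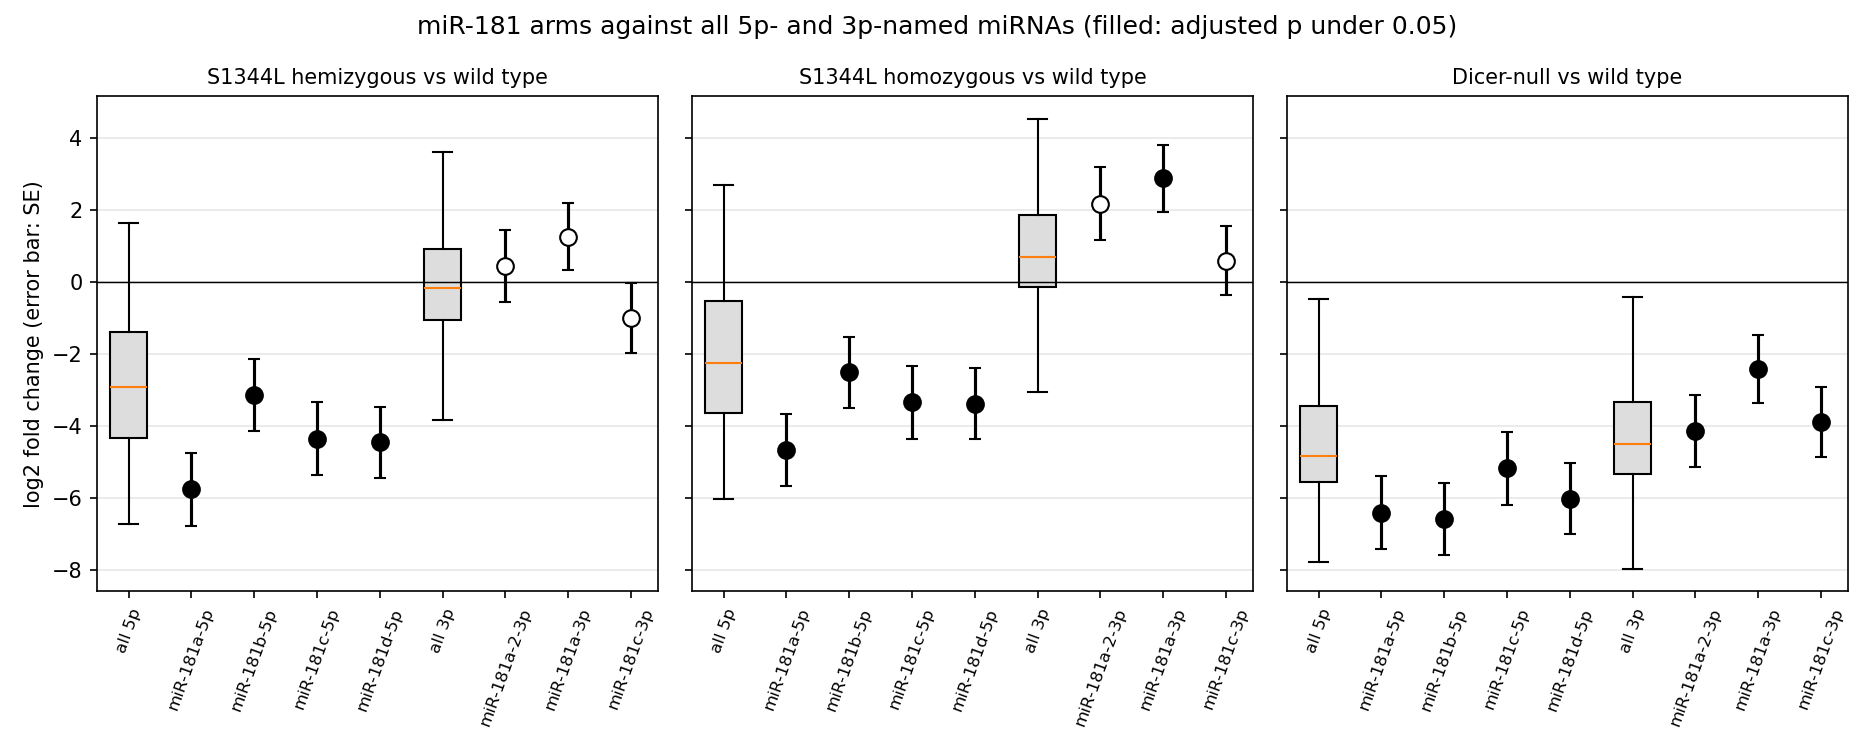
Log2 fold change of (RPM + 1) against the wild type for each member, beside boxes of all 227 5p-named and 300 3p-named miRNAs (line: median; box: quartiles; whiskers: the farthest values within 1.5 times the box), in hemizygous, homozygous and null cells. Error bars are SE and filled points passed an adjusted p under 0.05: all 4 5p arms in each genotype, miR-181a-3p in homozygous cells and all 3 3p arms in null cells.

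The ratio of 3p to 5p arm within a hairpin does not depend on how a library was scaled, apart from the 1 RPM added to each arm, and in both S1344L genotypes it moved strongly toward 3p. For miR-181a, with the 3p arms of both loci summed, log2 of the 3p over the 5p value was 0.53 and 1.37 in hemizygous cells, 1.69 and 1.55 in homozygous cells, -3.36 and -3.34 in null cells, and -5.98 and -4.85 in wild-type cells. The 3p arms thus outnumbered the 5p arm in all 4 S1344L libraries, and the 5p arm outnumbered them in all 4 others. The change against the wild type was 6.37 ± 0.52 in hemizygous (adjusted p = 2.58e-06, limma over 186 hairpins) and 7.03 ± 0.52 in homozygous cells (adjusted p = 1.31e-06). These were the 12th and the 9th largest changes of 186 hairpins, whose median changes were 2.89 in hemizygous and 3.31 in homozygous cells. With miR-181a-3p alone as the 3p value the changes were 7.02 and 7.55, and with miR-181a-2-3p alone 6.20 and 6.85, hemizygous before homozygous. Each of these sets the 3p arm of a single locus against the 5p reads of both loci. They therefore share the fall of miR-181a-5p, and do not show the ratio of either locus by itself.

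For miR-181c the same ratio was -0.68 and 0.09 in hemizygous cells, 0.14 and 0.47 in homozygous cells, -3.26 and -1.44 in null cells, and -3.91 and -3.37 in wild-type cells. The S1344L libraries lay near equal arms, with the 5p arm still ahead in hemizygous replicate 1. The change was 3.35 ± 0.62 in hemizygous (adjusted p = 0.000548, limma) and 3.95 ± 0.62 in homozygous cells (adjusted p = 0.000161), near the median of all hairpins. A shift toward 3p was called for 77.4% of all hairpins in hemizygous and 79.6% in homozygous cells, against 2 of 2 miR-181 hairpins. In null cells the miR-181a ratio differed from the wild type by 2.06 ± 0.52 (adjusted p = 0.0109, limma), on 0 and 1 null 3p reads. miR-181c missed the threshold, with 19.4% of hairpins called toward 3p. With 1 RPM added, the low null 5p values allowed no ratio as low as in the wild type in either hairpin. The direction of these null differences was thus set in advance. Against null cells, both S1344L genotypes were shifted toward 3p in both hairpins, by 4.30 and 2.06 in hemizygous and by 4.97 and 2.66 in homozygous cells for miR-181a and miR-181c, as were 77.4% of hairpins in hemizygous and 78.5% in homozygous cells. Leaving out any library, hemizygous replicate 1 included, kept all 4 calls against the wild type, with changes between 5.801 and 7.60 for miR-181a and between 2.96 and 4.22 for miR-181c.

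**Figure D3:**
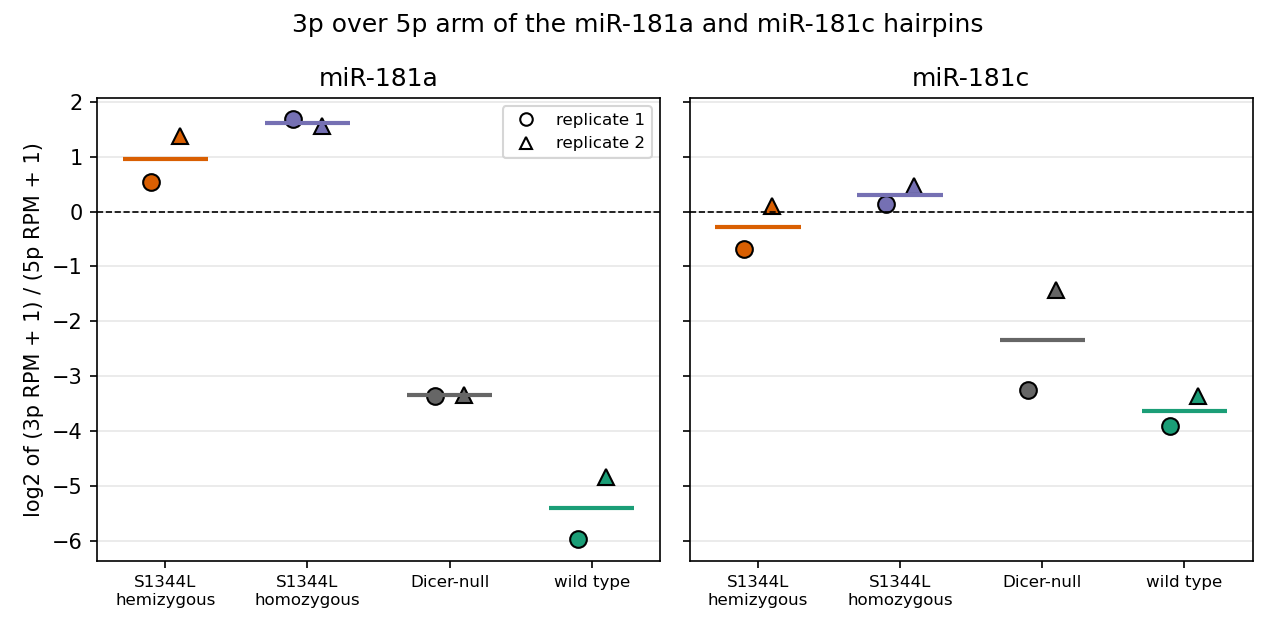
Log2 of (3p RPM + 1) over (5p RPM + 1) for the miR-181a and miR-181c hairpins in each library (circles replicate 1, triangles replicate 2, bars means); the dashed line marks equal arms. The S1344L libraries sit between 0.53 and 1.69 for miR-181a and between -0.68 and 0.47 for miR-181c, above every null and wild-type library.

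Over the whole family, 5p arms made up 80.5% and 57.7% of the member reads in hemizygous cells (95% Wilson intervals 72.8 to 86.4 and 52.2 to 63.0), 57.1% and 52.7% in homozygous cells (52.5 to 61.6 and 47.2 to 58.1), 100% and 93.3% in null cells (90.6 to 100 and 78.7 to 98.2), and 98.6% and 97.2% in wild-type cells (98.2 to 98.9 and 96.6 to 97.7). Intervals cover counting error only. The S1344L libraries lay below all others, and the null libraries, on 37 and 30 reads, could not be told from the wild type. The share was lower than in the wild type by 28.8 points in hemizygous cells (69.1% ± 16.1 against 97.9% ± 0.985, SD, n = 2 each) and by 43.0 points in homozygous cells (54.9% ± 3.11), with exact two-sided permutation p = 0.333 in each, which no comparison of 2 with 2 libraries can go below. Without hemizygous replicate 1 the hemizygous difference was -40.2 points.

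The make-up of the 5p arms also differed, with miR-181b-5p keeping more of its wild-type level than miR-181a-5p. miR-181b-5p was 73.8% and 61.4% of the 5p member reads in hemizygous cells, 64.0% and 57.5% in homozygous cells, 27.0% and 21.4% in null cells, and 32.7% and 30.5% in wild-type cells. miR-181a-5p was 11.7% and 25.0% in hemizygous, 19.4% and 24.6% in homozygous, 35.1% and 60.7% in null, and 49.6% and 53.2% in wild-type cells. In every S1344L library miR-181b-5p was the leading 5p member and in both wild-type libraries miR-181a-5p was. The log2 ratio of miR-181b-5p to miR-181a-5p was higher than in the wild type by 2.61 in hemizygous (1.91 ± 0.88 against -0.70 ± 0.14, SD, n = 2 each) and by 2.16 in homozygous cells (1.46 ± 0.35); the exact permutation p was 0.333, the smallest possible, and 0.571 after adjustment over 24 ratios compared. The shares of miR-181c-5p and miR-181d-5p lay between 2.91% and 12.0% in the S1344L and wild-type libraries, with no order between genotypes.

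**Figure D4:**
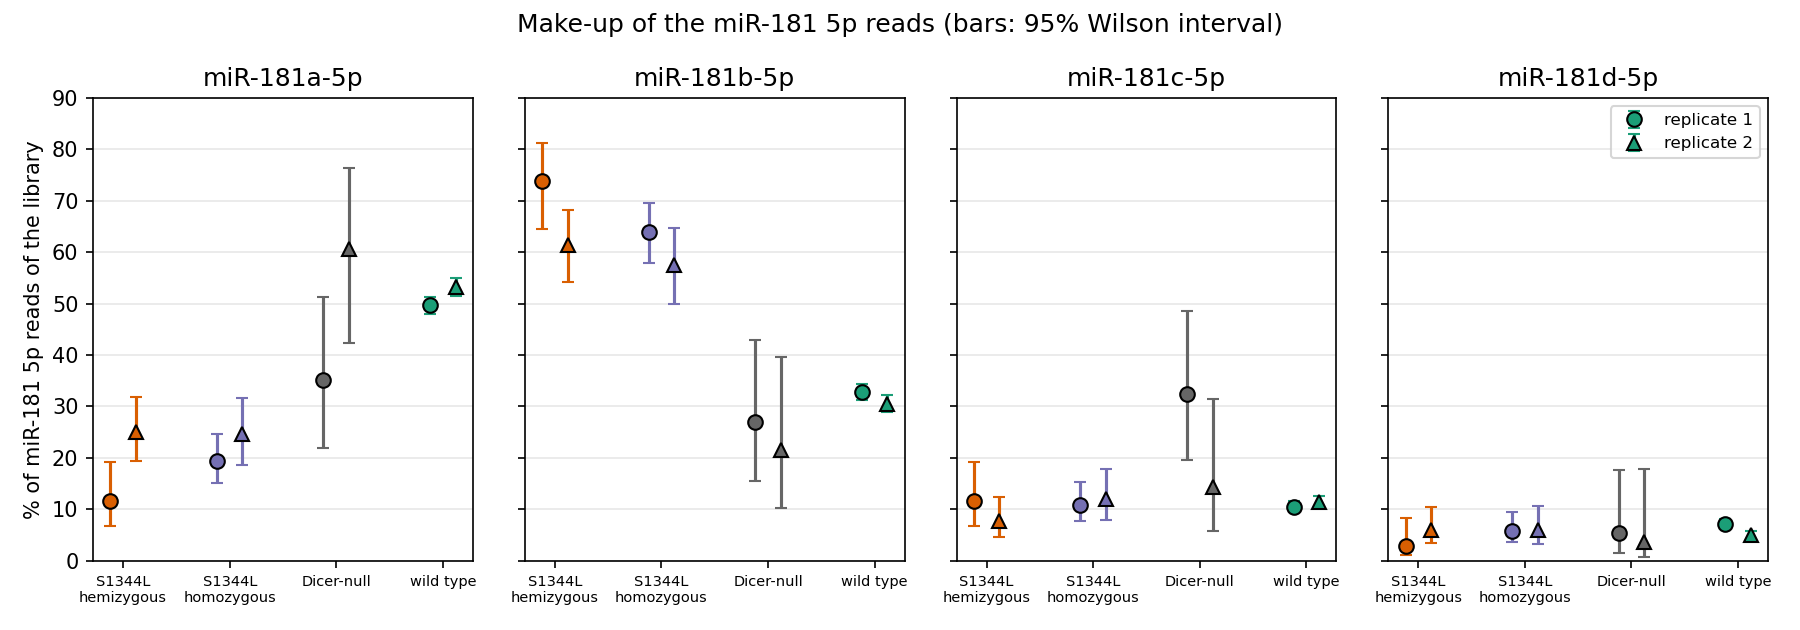
Share of the 5p member reads of each library taken by each 5p member, with 95% Wilson intervals for counting error, by genotype (circles replicate 1, triangles replicate 2). miR-181b-5p holds between 57.5% and 73.8% in the S1344L libraries and 30.5% and 32.7% in the wild type; the null libraries rest on 37 and 28 5p reads.

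Taking levels in order, with all members 22 or 23 bases long, wild-type cells held miR-181a-5p, miR-181b-5p, miR-181c-5p and miR-181d-5p, from highest to lowest, with no overlap between neighbours. They ranked 172, 204, 286 and 347 by mean RPM among 594 miRNAs. The 3p arms came after them, and miR-181a-2-3p and miR-181c-3p overlapped. In homozygous cells the order was miR-181b-5p and miR-181a-2-3p, which overlapped, then miR-181a-5p, miR-181a-3p, miR-181c-3p, miR-181c-5p and miR-181d-5p, each clear of its neighbours. A 3p arm thus stood beside the leading 5p arm there, at a mean of 121 RPM ± 18.6 (SD, n = 2).

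In Dicer-null cells all 7 members were lower than in the wild type on the deposited scale, as were 87.4% of all miRNAs. The log2 changes were -6.42 ± 1.01 for miR-181a-5p, -6.59 ± 1.00 for miR-181b-5p, -5.19 ± 1.01 for miR-181c-5p and -6.03 ± 0.98 for miR-181d-5p, against a median of -4.60 for all miRNAs. With both libraries of a genotype pooled, null cells kept 1.04% of the wild-type RPM of miR-181a-5p (exact 95% interval 0.702 to 1.49), 0.899% of miR-181b-5p (0.513 to 1.46), 2.63% of miR-181c-5p (1.49 to 4.29) and 0.873% of miR-181d-5p (0.179 to 2.57). The 3p arms changed by -4.15 ± 1.00 for miR-181a-2-3p, -2.43 ± 0.94 for miR-181a-3p and -3.90 ± 0.97 for miR-181c-3p, on 1, 0 and 1 null reads over both libraries. miR-181a-3p lost its call with 5 RPM added (-0.95, adjusted p = 0.145, limma), without either null library and without wild-type replicate 2. Scaled to each library's own miRNA total, where the median of all miRNAs was -1.16, 4 members stayed lower, namely the 5p arms, and under median-ratio and upper-quartile scaling 3 did, without miR-181c-5p.

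Set against null cells, both S1344L genotypes held more of the 3p arms, while for the 5p arms the comparison depended on the scaling. miR-181a-3p, with 0 null reads, was set against a ceiling of 3 reads over both null libraries. It stood 11.8-fold above that ceiling in hemizygous and 27.5-fold above it in homozygous cells. The hemizygous value joined unlike libraries: replicate 1 alone, with 4 reads, stood 2.09-fold and replicate 2 alone 29.4-fold above it. Counting error of the S1344L reads is not in these values, so they are not lower limits. miR-181a-2-3p, with 1 null read, was 104-fold higher in hemizygous (exact 95% interval 18.27 to 4150) and 263-fold higher in homozygous cells (46.7 to 10428), and miR-181c-3p was 22.2-fold (3.59 to 917) and 71.5-fold higher (12.3 to 2870). Without hemizygous replicate 1 these became 253-fold and 42.6-fold, and replicate 1 alone gave 21.9-fold (3.34 to 928) and 10.97-fold (1.41 to 494). All 3 were called higher in both genotypes, as were 91% of 3p-named miRNAs in hemizygous and 96.3% in homozygous cells; under each other scaling miR-181c-3p in hemizygous cells was no longer past the threshold, nor was it without null replicate 1.

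Among the 5p arms, miR-181b-5p was called higher than in null cells in both S1344L genotypes on the deposited scale (3.43 ± 1.00 in hemizygous and 4.06 ± 1.00 in homozygous cells) and miR-181d-5p in homozygous cells (2.64 ± 0.98), while 35.2% of all 5p-named miRNAs were called higher in hemizygous and 53.3% in homozygous cells. miR-181a-5p differed from null cells by 0.65 ± 1.01 in hemizygous and 1.74 ± 1.01 in homozygous cells, and miR-181c-5p by 0.83 ± 1.01 and 1.83 ± 1.01, none of which passed the test (adjusted p = 0.573, 0.102, 0.474 and 0.0870, limma). In homozygous cells both were called higher in a fit of only the 4 libraries, which called 86.0% of all miRNAs against 78.3% in the main fit. Without either hemizygous library their changes in homozygous cells stayed at 1.74 and 1.83. Without hemizygous replicate 1, miR-181a-5p (1.99) and miR-181d-5p (2.71) were called higher in hemizygous cells. miR-181d-5p lost its call without any 1 of the homozygous and null libraries. These comparisons turned on the scaling: against each library's own miRNA total, miR-181b-5p was at 0.41 and 0.26, and miR-181a-5p, miR-181c-5p and miR-181d-5p turned to lower than null, with miR-181a-5p at -2.43 and -2.10, hemizygous before homozygous. There miR-181a-5p (adjusted p = 0.00262 and 0.00450, limma) and miR-181c-5p (0.00974 and 0.0154) were called lower than null, beside 181 and 175 of 592 miRNAs. Both were also called lower under median-ratio and upper-quartile scaling, and miR-181d-5p under none. Summed over all members, the share of the miRNA pool was 0.0224% and 0.0218% in the null libraries. In the S1344L libraries it lay between 0.0128% and 0.0197%. The null shares rest on 37 and 30 reads, and whether the gap exceeds counting error was not tested. The sum does not speak for each member. Scaled to own totals, miR-181b-5p lay above null, as did miR-181c-3p in hemizygous cells (1.58, not past the threshold).

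Hemizygous and homozygous cells were not told apart. For the 7 members the differences, hemizygous minus homozygous, ran from -1.74 for miR-181a-2-3p to -0.64 for miR-181b-5p, with standard errors between 0.94 and 1.01, and 0 of 7 members were called, as were 0% of all miRNAs; 0 members passed an unadjusted p under 0.05 and 0 were called by limma-voom. Without hemizygous replicate 2, 5 of 7 members were called lower in hemizygous cells, and 416 of all 594 miRNAs (70.03%) were called in that fit; without replicate 1, 0 members and 0% of all miRNAs were called. The arm ratios differed by -0.67 ± 0.52 for miR-181a and -0.60 ± 0.62 for miR-181c (adjusted p = 0.961 each, limma).

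Other miRNAs followed the same course. By the root mean square difference of log2(RPM + 1), each miRNA centred on its own mean over the same 8 libraries, the profiles nearest to miR-181a-5p among 487 miRNAs were those of miR-99b-5p (0.152), miR-524-5p of the chromosome 19 miRNA cluster (0.208), miR-340-5p (0.227), miR-425-5p (0.271) and miR-542-5p (0.277). All 5 are 5p arms, and miR-99b-5p averaged 38.8 RPM in hemizygous, 69.9 in homozygous, 22.4 in null and 1878 in wild-type cells. Its own relatives lay farther off, at 0.678 for miR-181d-5p, 0.841 for miR-181c-5p and 1.32 for miR-181b-5p. As the 5 were picked for the smallest distances among 487, this order is no test of how alike the relatives are. Nearest to miR-181a-2-3p were miR-653-5p (0.364), miR-7-1-3p (0.386), miR-362-3p (0.389), miR-34b-3p (0.407) and miR-624-3p (0.417), of which 4 are 3p arms.

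Of the pathway partners, miR-125a-5p and miR-125b-5p, which act with miR-181 on Cbx7 in mouse stem cells, 1 of 2 fell in each S1344L genotype. miR-125b-5p had 37.9 and 149 RPM in hemizygous, 159 and 92.6 RPM in homozygous, 63.6 and 122 RPM in null, and 2091 and 1883 RPM in wild-type cells, with log2 changes of -4.70 ± 0.97 in hemizygous and -4.02 ± 0.97 in homozygous cells (adjusted p = 1.93e-05 and 0.000449, limma). Both S1344L genotypes overlapped the null there. miR-125a-5p changed by -1.99 ± 0.89 and -1.30 ± 0.89 in the same order and did not pass the test. Of 9 miRNAs known from T cells and other immune cells, 7 were measured, and 5 fell in hemizygous, 3 in homozygous and 7 in null cells, with none higher. Of the 7, 5 are 5p arms, and these are the 5 that fell in hemizygous cells. The median log2 change of the 7 was -2.93 in hemizygous and -1.82 in homozygous cells, against -2.93 and -2.26 for all 5p-named miRNAs and -0.92 and -0.05 for all miRNAs. Of all 5p-named miRNAs, 60.4% were called lower in hemizygous and 48.9% in homozygous cells, and of all miRNAs 87.4% in null cells. The 3 that fell in homozygous cells were miR-146a-5p, a brake on inflammatory signalling, miR-150-5p, of mature lymphocytes, and miR-17-5p, of a growth-promoting cluster, all 5p arms.

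The cells carried the miRNAs of pluripotent stem cells. All 8 listed 3p arms of the clusters that begin with miR-302a and miR-371a were measured and summed to 51.6% and 50.3% of the RPM in hemizygous, 48.7% and 49.7% in homozygous, 52.3% and 45.6% in null, and 39.7% and 38.0% in wild-type libraries. None passed the test in hemizygous or homozygous cells, and all 8 were called lower in null cells, with a median log2 change of -4.03. Markers of blood, of which 6 of 8 were measured, summed to between 0.0728% and 0.140% of RPM. Both homozygous libraries, at 0.0992% and 0.0925%, lay above both hemizygous and both wild-type libraries. The null libraries, at 0.140% and 0.0770%, lay on either side of the homozygous and wild-type values. Of the 6, 3 were called lower in hemizygous, 2 in homozygous and 5 in null cells, with none higher. Of all 594 miRNAs, 181, 131 and 519 were called lower in the same order. Fibroblast markers, 6 of 8 measured, summed to 0.324% and 0.510% in hemizygous, 0.515% and 0.476% in homozygous, 1.45% and 1.46% in null, and 1.33% and 1.55% in wild-type libraries, so each S1344L library lay below every null and wild-type library. The 5p arms miR-21-5p and miR-31-5p made up most of the wild-type sum, with 19384 and 6180 of 27719 RPM in replicate 1. Both were called lower in hemizygous cells and miR-31-5p alone in homozygous cells. The 3p arms miR-22-3p, miR-199a-3p and miR-143-3p changed by 0.69, 0.67 and -0.43 in homozygous cells. In hemizygous cells they changed by -0.07, -0.34 and -1.32, none of them called in either genotype. Neural markers, 5 of 5 measured, summed to 1.66% and 1.19% in hemizygous, 1.22% and 1.13% in homozygous, 0.596% and 0.573% in null, and 0.952% and 0.747% in wild-type libraries, so each S1344L library lay above every null and wild-type library. That sum was mostly miR-124-3p, for example 26035 of 29680 RPM in homozygous replicate 1. Against the wild type, miR-9-5p, miR-128-3p and miR-219a-5p had negative log2 changes in both S1344L genotypes, and miR-219a-5p was called lower in each. miR-132-3p changed by 1.26 in homozygous and -0.14 in hemizygous cells, without a call. The part of these lists in the miR-181 results was not tested.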

How the data were processed

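In the deposited table each of 8 columns is a library, and its values are log2 RPM, formed after 0.5 had been added to the reads, as the values show. The authors' cutadapt, limma and hg38 are named in the submitters' processing notes. The aligner, the counting of reads that fit several miRNAs, any filter and the choice of denominators are not stated. Per the labels' protocols, spike-ins were added to total RNA before linker ligation, gel selection and PCR, without a mention of molecular identifiers. Ligation efficiency can differ between sequences. The deposited log2 values were turned back to reads (largest distance from a whole read 7.31e-09) and RPM; the test had been planned for RPM. Denominators lie between 751354 and 1399486 and miRNA reads between 137655 and 2725756, so 1 read is worth 0.715 to 1.33 RPM and a count of 0 allows up to 3 reads. Replicate libraries differed beyond counting error (chi-square over degrees of freedom 10.6 to 85.8).

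Fold changes of log2(RPM + 1) come from limma (version 3.58.1, R version 4.3.3). All 8 libraries entered the model, which had a mean per genotype and a variance trend, and tests were two-sided over all 594 miRNAs, which all had at least 5 RPM in 2 libraries; the prior was infinite, so miRNAs of like level share 1 spread. The tests thus had 2376 degrees of freedom. That treats miRNAs as independent, although an offset of a whole library is shared by all of them. Arm ratios were tested likewise, without trend, over 186 hairpins paired by name. Shares and ratios of members used exact permutation tests, pooled reads exact intervals. Scripts were tested on simulated data. Alternatives were other added constants, filters, scalings, a replicate block, fewer libraries, each library left out and, after seeing the data, limma-voom on the reads and each S1344L library alone against null. Named miRNAs are the members, the 5 nearest profiles to miR-181a-5p and to miR-181a-2-3p among miRNAs with a mean of at least 50 RPM in 1 genotype, and examples of the lists. Members and lists were chosen with earlier results of these data known. Sequences are from RefSeq, and host genes from GENCODE on GRCh38.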

Additional observations from a re-analysis of the deposited data

How the results depend on the processing

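The direction and the call of most results held under the alternatives run. In homozygous against wild-type cells, between 1 and 6 of 7 members were called when 1 library was left out, and between 3 and 6 in hemizygous against wild-type cells; over all 594 miRNAs the calls ran from 39 to 284 in the homozygous and from 109 to 366 in the hemizygous comparison. Hemizygous against homozygous cells gave 0 to 5 member calls, and 0 to 416 over all miRNAs, when 1 library was left out. The fall in null cells covered 7 members on the deposited scale, 4 when scaled to each library's own miRNA total, and 3 by median-ratio factors and 3 by upper quartiles, beside 519, 287, 188 and 120 of all miRNAs called lower. Against null cells, a filter of 50 RPM left 5 members to test and gave 3 calls in homozygous (5 without it) and 2 in hemizygous cells (4 without it). Of the miRNAs left, that fit called 78.5% in homozygous and 66.3% in hemizygous cells, against 78.3% and 65.5% without the filter. A fit of only the 4 hemizygous and null libraries gave 2 member calls, beside 48.0% of all miRNAs.

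Median log2 changes of all miRNAs moved with the scaling. Own totals, median ratios and upper quartiles gave -0.24, 0.33 and 0.84 in hemizygous against wild-type cells (deposited -0.92), -0.10, 0.37 and 0.82 in homozygous (deposited -0.05) and -1.16, -0.57 and -0.12 in null cells (deposited -4.60). In the same order, 66.1%, 48.9% and 39.9% of all calls in hemizygous cells were lower (deposited 88.3%), and 64.1%, 50.6% and 38.9% in homozygous cells (deposited 68.9%). Signs turned as follows under own totals, median ratios and upper quartiles. In hemizygous against null cells, miR-181a-5p had -2.43, -2.47 and -2.45, miR-181c-5p -2.15, -2.19 and -2.17, and miR-181d-5p -0.98, -1.02 and -1.01. In homozygous against null cells, miR-181a-5p had -2.10, -2.24 and -2.24, miR-181c-5p -1.90, -2.04 and -2.04, and miR-181d-5p -0.57, -0.70 and -0.70. In each of these fits against null cells miR-181a-5p and miR-181c-5p were called lower, and miR-181d-5p was not. In hemizygous against homozygous cells miR-181b-5p had 0.15, 0.26 and 0.28. miR-181c-3p in hemizygous against wild-type cells had 0.18 and 0.63 under the last 2. The null libraries' low miRNA totals enter these scalings directly.

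With 1 library left out, hemizygous against homozygous cells ran from -2.42 to 0.25 for miR-181a-5p, -1.34 to 0.072 for miR-181b-5p, -2.22 to 0.068 for miR-181d-5p, -3.33 to 0.095 for miR-181a-3p and -2.47 to 0.15 for miR-181b-2-3p, the low end without hemizygous replicate 2 and the high end without replicate 1. In the same way hemizygous against null cells ran from -0.68 to 1.99 for miR-181a-5p, and hemizygous against wild-type cells from -1.27 to 2.13 for miR-181a-2-3p, which was -0.084 without wild-type replicate 1, and from -0.46 to 2.96 for miR-181a-3p.

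Arm ratios in S1344L against wild-type cells held under every alternative run. The null ratios could not fall under a floor set by the RPM added, since the null 5p values were low. In null against wild-type cells miR-181a was 2.06 with 1 RPM added, 1.46 with 0.5 RPM (adjusted p = 0.0734, limma) and 1.497 to 2.63 with 1 library left out, lost without wild-type replicate 1; it rests on 0 and 1 null reads. miR-181c was 1.29, past the threshold at 2.35 with 5 RPM added, and 0.38 to 2.20 with 1 library left out, past it without null replicate 1. In hemizygous against null cells miR-181c was 2.06, lost at 0.89 with 5 RPM added, and 1.15 to 2.97 with 1 library left out, lost without hemizygous replicate 2 or null replicate 1. The 5p share in homozygous against wild-type cells (-43.0 points) was -47.0 without miR-181a-5p and -67.9 over miR-181a and miR-181c alone, where hemizygous cells had -56.9; in null against wild-type cells it ran from -4.58 to 2.09 points with 1 library left out.

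Replicate numbers are shared between genotypes in the labels, but nothing says what a number stands for, and deviations of same-numbered libraries correlated between -0.10 and 0.61. With the replicate number as a block, 5 members were called in homozygous, 4 in hemizygous and 7 in null cells against the wild type, 0 between the S1344L genotypes, and 5 and 4 against null, the same counts as without it; the miR-181a ratio stayed at 6.37 in hemizygous and 7.03 in homozygous cells. Depth limits the 3p arms most, which had 0 to 44 reads in null and wild-type libraries.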

Other observations

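miR-181b-2-3p, the 3p arm of the chromosome 9 miR-181b hairpin, was in the table but is not among the 7 members, and it was looked at after its values were seen. It had 2.19 and 18.5 RPM in hemizygous cells, 19.1 and 14.4 RPM in homozygous cells, 0 RPM in both null libraries, and 0.779 and 4.28 RPM in wild-type cells. It was higher in homozygous than in wild-type cells by 2.52 ± 0.90 on the log2 scale (adjusted p = 0.0198, limma; lost without any 1 of the homozygous and wild-type libraries), and its change in hemizygous cells, 1.36 ± 0.90, missed the threshold, though without hemizygous replicate 1 it was 2.67 and past it (adjusted p = 0.0116, limma). Against miR-181b-5p, its ratio moved toward 3p by 4.52 ± 0.63 in hemizygous and 5.05 ± 0.63 in homozygous cells (adjusted p = 8.73e-05 and 3.86e-05, limma over 187 hairpins). The same ratio differed by 4.97 ± 0.63 between null and wild-type cells, where with 0 null reads of the 3p arm it rests on the 1 RPM added, and the S1344L genotypes differed from null cells by -0.45 in hemizygous and 0.073 in homozygous cells. The 3p arm of the other miR-181b locus was not analysed here, so this ratio sets 1 locus against the 5p reads of both.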
